A study of Homo sapiens with 14 samples.

Results

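The genes described here are 10 classical genes of the epithelial-mesenchymal transition: the mesenchymal genes VIM, FN1 and CDH2, the transcription factors ZEB1, ZEB2, SNAI1, SNAI2 and TWIST1, and the epithelial genes CDH1 and EPCAM. They were taken by name and not by a threshold on their values, though earlier results of these data were known. Of the 10, 9 were measured among the 19410 genes listed, 8 passed the filter on low values that left 13540 genes for testing, and TWIST1 was not analysed here. RNA was sequenced from parental MDA-MB-231 cells, a human triple-negative breast cancer line with a mesenchymal look, and from 6 lines derived from it by CRISPR/Cas9 editing, with 2 libraries of each. The edited lines were SAP30-KO1 and SAP30-KO2, SIN3A+SIN3B-DKO1 and SIN3A+SIN3B-DKO2, and MLL1-KO1 and MLL1-KO2, that is, a pair of lines for each knockout. All cells grew in the same serum-containing medium with no further treatment. According to the study's methods each edited line was a mixture of expanded knockout clones obtained after antibiotic selection, whereas the parental cells went through no such step in the labels, so editing on one side and selection and expansion on the other cannot be told apart in anything that all the edited lines share. SAP30 and its partners SIN3A and SIN3B belong to a histone deacetylase complex, and MLL1, listed as MLL, is a histone methyltransferase.

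During the epithelial-mesenchymal transition, cells give up adherens junctions and cell polarity and take on a motile, matrix-producing state. The zinc finger factors of the SNAI and ZEB families bind E-boxes in the promoters of epithelial genes, CDH1 above all, and lower their transcription. E-cadherin (CDH1) and the adhesion molecule EPCAM mark the epithelial side, and the intermediate filament vimentin (VIM), the matrix protein fibronectin (FN1) and N-cadherin (CDH2) mark the mesenchymal side. MDA-MB-231 cells are known to lie towards the mesenchymal end.

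The 2 members with mesenchymal products whose RNA passed the filter, FN1 and VIM, differed from each other in which lines moved, and the 250 bases upstream of their RefSeq starts (GRCh38.p14) are shown to set their promoters side by side. Capitals mark matches, on either strand, to CAGGTG (the E-box bound by SNAI and ZEB factors), TGACGTCA (the cAMP response element), CCAAT and GGGCGG (the GC box). RefSeq windows were matched for 5 of the 10 members, VIM, FN1, CDH2, ZEB1 and ZEB2.
FN1, chr2:215436069-215436318, minus strand: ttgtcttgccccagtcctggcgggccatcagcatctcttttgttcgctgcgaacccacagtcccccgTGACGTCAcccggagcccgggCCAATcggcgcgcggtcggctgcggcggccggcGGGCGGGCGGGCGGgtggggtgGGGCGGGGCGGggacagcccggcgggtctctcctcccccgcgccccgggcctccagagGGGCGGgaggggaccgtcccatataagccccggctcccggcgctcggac
VIM, chr10:17227991-17228240, plus strand: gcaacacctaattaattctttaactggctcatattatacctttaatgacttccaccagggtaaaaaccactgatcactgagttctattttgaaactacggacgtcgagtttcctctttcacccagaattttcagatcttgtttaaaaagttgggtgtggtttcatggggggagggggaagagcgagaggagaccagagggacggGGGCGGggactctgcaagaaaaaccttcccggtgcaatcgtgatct
The FN1 window held 1 cAMP response element, which begins 183 bases before the start, 1 CCAAT and 6 GC box matches, some of them overlapping. The VIM window held 1 GC box match, 46 bases before the start. CAGGTG or its complement CACCTG was found in neither window. Among 35116 RefSeq windows of the same length, 17.5% held the E-box, 1.65% the cAMP response element, 32.0% the CCAAT letters and 42.6% the GC box. These are matches of letters only.

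Values were in TPM, that is, reads scaled for gene length and to the same total in every library, and 18415036 to 23162682 reads per library lay behind them. Defining genes of the cell line were present in every library: VIM at 5741 to 8805 TPM, CD44 at 267 to 611 TPM and EGFR at 96.1 to 192 TPM. The hormone receptor genes ESR1 and PGR did not exceed 0.191 and 0.139 TPM, and ERBB2 lay at 21.9 to 42.8 TPM. Of the markers of other cell types, CD3E, CDH5 and DCN had at most 1 read in any library, but COL1A1 reached 636 reads, PECAM1 145, KRT17 73 and CD14 60. PECAM1 was called higher in both SAP30-KO and both MLL1-KO lines, and CD14 higher in both SAP30-KO lines and lower in MLL1-KO1. The part of such RNA in the results was not tested. Over the libraries, 3 endothelial markers summed to 1.64 to 4.03 TPM and the 3 basal markers measured to 0.971 to 6.68 TPM, highest in the MLL1-KO libraries. SAP30 RNA was 78.9 and 82.8 TPM in parental cells and at most 4.96 TPM in the SAP30-KO libraries, and MLL fell by 1.64 and 0.97 on the log2 scale in MLL1-KO1 and MLL1-KO2 but also by 0.95 and 0.65 in SAP30-KO1 and SAP30-KO2 (limma, adjusted p from 2.7e-06 to 0.0033). SIN3B fell by 0.61 and 0.71 in the libraries labelled SIN3A+SIN3B-DKO1 and -DKO2, whereas SIN3A, the other gene their label names, measured 0.47 and 0.31 above parental on the log2 scale (limma, adjusted p = 2.2e-06 and 4.9e-05). The RNA level of SIN3A therefore gives no check of that label, and these lines are given by their labels throughout.

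Of the 8 tested members, the epithelial CDH1 and EPCAM were called lower in each edited line, FN1 was called higher in 3 lines and SNAI2 in both MLL1-KO lines, and ZEB1 and ZEB2 were not called. A call means an adjusted p under 0.05 in limma and at least a 1.5-fold change. CDH1 passed the filter on low values only through the parental libraries, where it was high. Its place among the members called lower was therefore fixed in part by the filter. SNAI1 passed only through the parental and MLL1-KO libraries, so its lower calls were fixed in part by the filter too. In SAP30-KO1 3 members were called lower, where 7.86% of all tested genes were called lower and 7.8% higher. SAP30-KO2 had 2 members lower, against 8.12% of all genes lower and 7.44% higher. The line labelled SIN3A+SIN3B-DKO1 had 3 lower and FN1 higher, against 8.66% and 7.76% of all genes, and SIN3A+SIN3B-DKO2 had the 2 epithelial members lower, against 7.56% lower and 6% higher. MLL1-KO1 had 2 members lower and 4 higher (VIM, FN1, SNAI1 and SNAI2), against 16.3% and 6.89% of all genes, and MLL1-KO2 had 2 lower and 2 higher (FN1 and SNAI2), against 14.9% and 10.2%. These comparisons share the parental libraries and so are not independent of each other. Where the libraries of groups are said below to lie apart, the share of all genes that lie apart in that way was not determined. The median change of the 4 transcription factors tested was 0.02, 0.01, -0.18, -0.16, 0.30 and 0.30 in the lines SAP30-KO1, SAP30-KO2, SIN3A+SIN3B-DKO1, SIN3A+SIN3B-DKO2, MLL1-KO1 and MLL1-KO2, and for each member below the lines are given in this order.

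**Figure D1:**
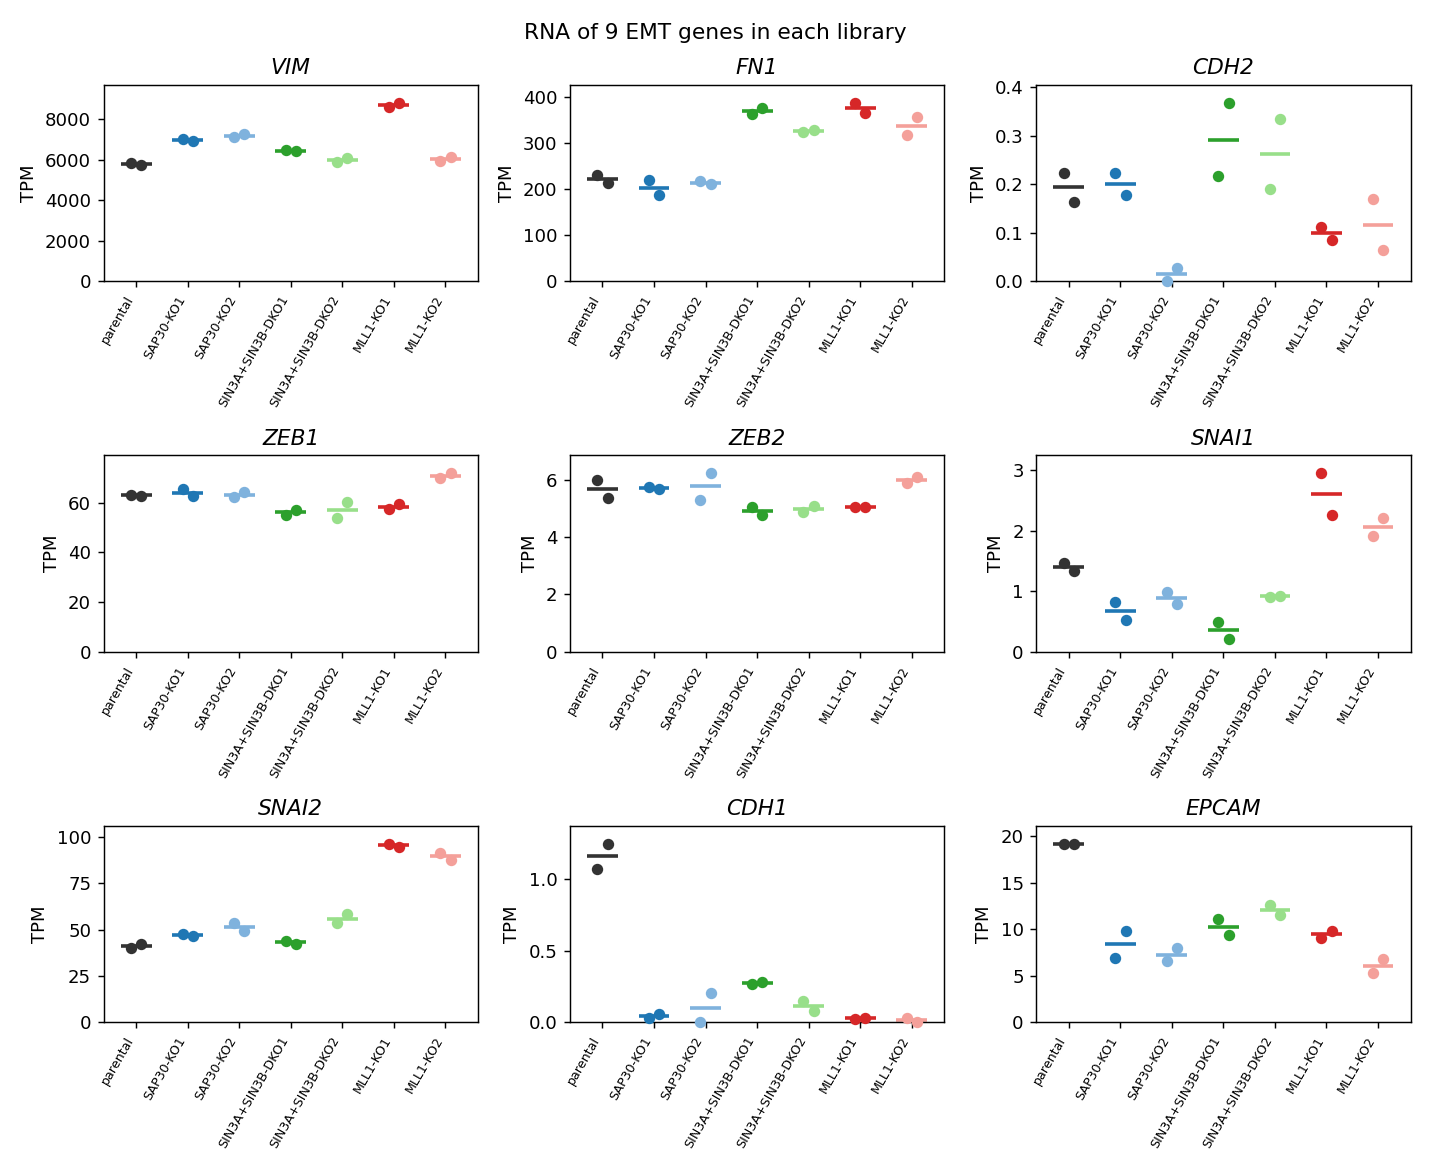
TPM of the 9 measured genes in each library (points) with the mean of the 2 libraries of each group (bars), on linear axes that start at 0. Parental cells stood above all edited lines in CDH1 and EPCAM, the 4 MLL1-KO libraries stood above all others in SNAI2, and VIM was highest in MLL1-KO1.

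The epithelial members were lower in the edited lines. CDH1, whose product E-cadherin joins epithelial cells (GRCh37, chromosome 16, 68771195 to 68869440), measured 1.07 and 1.25 TPM in the parental libraries, from 37 and 42 reads. SAP30-KO1 had 0.0289 and 0.0536 TPM and SAP30-KO2 had 0 and 0.203 TPM, from 0 to 8 reads a library. The line labelled SIN3A+SIN3B-DKO1 kept the most, with 0.269 and 0.282 TPM. Its pair, SIN3A+SIN3B-DKO2, had 0.148 and 0.0756 TPM, within the range of SAP30-KO2. The MLL1-KO1 libraries held 1 read each, and the MLL1-KO2 libraries 1 and 0. Every edited library lay below both parental libraries, so the groups did not overlap. In RNA from whole cultures, fewer CDH1-expressing cells and less CDH1 RNA per cell cannot be told apart.

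On the scale log2(TPM + 0.5), CDH1 fell by 1.61, 1.48, 1.09, 1.44, 1.65 and 1.68 in the 6 lines (SE 0.22 each, n = 2 and 2 libraries; limma, adjusted p from 5.4e-05 to 0.0016). The mean of the lines labelled SIN3A+SIN3B-DKO lay 0.28 above that of SAP30-KO, which did not pass (limma, adjusted p = 0.16). This scale understates the change of so low a gene. As shares of the parental level by recovered reads, 23.8% was left in SIN3A+SIN3B-DKO1 (exact 95% interval 14.1% to 38.6%, from 22 reads against 79), and 1.29% in MLL1-KO2 (0.0322% to 7.38%, from 1 read). The other lines lay between, at 3.61% in SAP30-KO1, 8.69% in SAP30-KO2, 9.71% in SIN3A+SIN3B-DKO2 and 2.22% in MLL1-KO1. These intervals cover counting error only. CDH1 passed the filter on low values through the parental libraries alone, so it had to be higher in parental cells to be tested at all. With 1 library left out at a time, and the genes tested kept as before, the CDH1 differences ran from -1.76 to -1.02 over the 6 lines. Without either parental library CDH1 would have missed the filter, so these fits are no check of its calls.

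The genes around CDH1 were lower in the edited lines too. Of the 50 nearest tested genes on chromosome 16, 43 to 46 lay below the parental level in each line, their median log2 fold change was between -0.48 and -0.38, and 10 to 15 of them were called lower and 0 to 2 higher. Of all tested genes, 7.56% to 16.3% were called lower in the same lines. The median of all 13540 genes lay between -0.09 and 0.03. CDH3, the adjacent P-cadherin gene, fell by 0.78, 0.66, 1.13 and 1.20 in SAP30-KO1, SAP30-KO2, SIN3A+SIN3B-DKO1 and -DKO2 and rose by 1.61 and 0.59 in MLL1-KO1 and MLL1-KO2 (limma, adjusted p from 2.3e-05 to 0.018). CDH3 had at most 0.943 TPM in parental cells and up to 3.84 TPM in edited ones, so it passed the filter through edited libraries alone. Its rise in the MLL1-KO lines was therefore fixed in part by the filter. After subtraction of the median of its neighbours from each gene, CDH1 still fell by 1.13, 1.04, 0.65, 1.01, 1.23 and 1.30 in the same order of lines, with adjusted p in limma from 0.00025 to 0.023. The 2 genes most correlated with CDH1 over the 14 libraries, POLR2C (Pearson r = 0.97) and WWP2 (r = 0.96), are also on chromosome 16. The part of this regional shift in the CDH1 result was not tested beyond that subtraction.

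**Figure D2:**
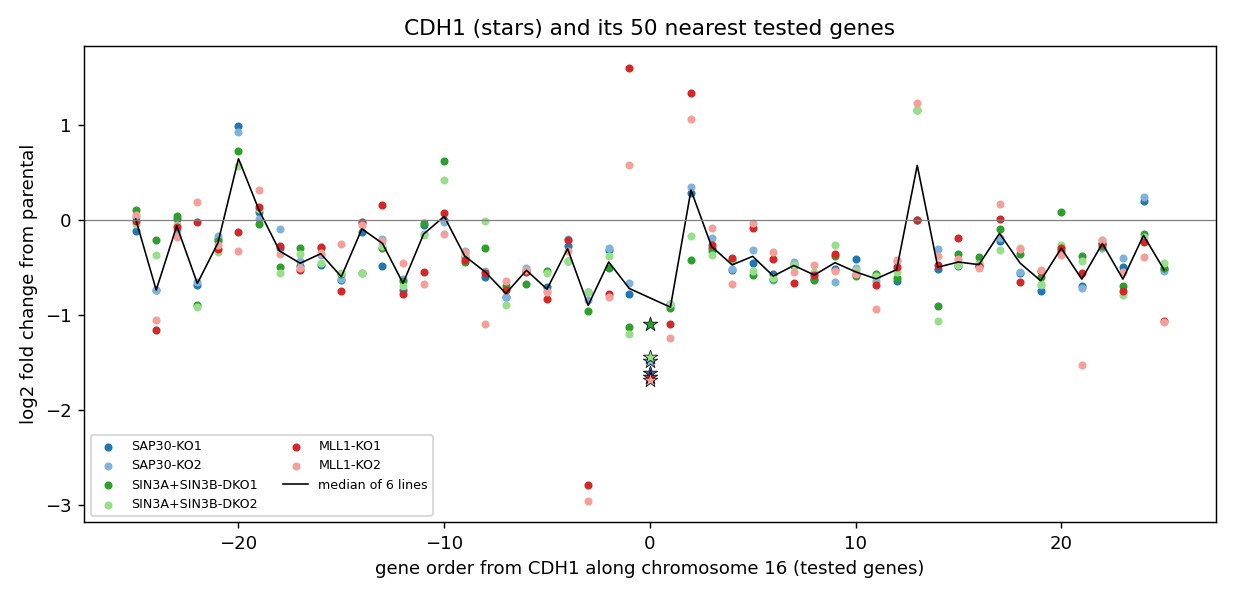
Log2 fold change from parental of the 50 tested genes nearest to CDH1 along chromosome 16 in each edited line (points), with CDH1 as stars and the median of the 6 lines as a black line. Most neighbours lie below 0, with medians of -0.48 to -0.38 per line, and CDH1 lies below those medians at -1.09 to -1.68.

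EPCAM, an epithelial cell adhesion molecule (chromosome 2, 47572297 to 47614740), held 19.2 and 19.1 TPM in parental cells. SAP30-KO1 had 6.88 and 9.83 TPM, SAP30-KO2 had 6.55 and 7.96 TPM, and there were 11.1 and 9.34 TPM in the libraries labelled SIN3A+SIN3B-DKO1, and 12.6 and 11.5 TPM in those labelled SIN3A+SIN3B-DKO2. MLL1-KO1 had 9.07 and 9.86 TPM and MLL1-KO2 had 5.33 and 6.81 TPM, the lowest mean of the 7 groups. EPCAM passed the filter in every library. No edited library reached the parental values, and 62 to 237 reads lay behind each of these numbers. EPCAM fell by 1.17, 1.35, 0.88, 0.65, 0.98 and 1.59 on the log2 scale in the same order of lines (SE 0.16, limma, adjusted p from 7.8e-06 to 0.0069). These calls stood when any 1 library was left out and after subtraction of the neighbours' median, which for EPCAM was between -0.22 and 0.04.

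The lines differed in how far EPCAM fell. MLL1-KO1 kept more than MLL1-KO2, by 0.61 on the log2 scale (95% interval 0.25 to 0.97, limma, adjusted p = 0.012), a call that was lost without MLL1-KO1 replicate 2 (0.55) or MLL1-KO2 replicate 1 (0.45). In that comparison of lines 3.27% of all genes were called higher. For the means of 2 lines that follow, the p-values hold the spread between libraries of a line, not that between lines. MLL1-KO1, at 9.07 and 9.86 TPM, overlapped SIN3A+SIN3B-DKO1, at 11.1 and 9.34 TPM, so those 2 genotypes did not lie apart. The mean of the lines labelled SIN3A+SIN3B-DKO lay 0.50 above that of the SAP30-KO lines (adjusted p in limma 0.0046) and the mean of the MLL1-KO lines 0.52 below that of the lines labelled SIN3A+SIN3B-DKO (adjusted p in limma 0.0020), both short of the 1.5-fold minimum. Without SAP30-KO1 replicate 2 the first of these was 0.62, and without MLL1-KO2 replicate 2 the second was -0.60, and each then passed. The same direction was seen in CDH1, which lay 0.40 lower in MLL1-KO than in the lines labelled SIN3A+SIN3B-DKO (limma, adjusted p = 0.040), again short of 1.5-fold, though the difference was -1.22 and passed with a pseudocount of 0.1 and -2.54 and passed in a voom fit of the recovered reads.

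Among the mesenchymal genes, FN1 separated the SAP30-KO lines from the others. Fibronectin RNA (chromosome 2, 216225163 to 216300796) stood at 231 and 213 TPM in parental cells. SAP30-KO1 had 220 and 187 TPM and SAP30-KO2 had 218 and 210 TPM, so these groups overlapped. The libraries labelled SIN3A+SIN3B-DKO1 had 363 and 376 TPM, those labelled SIN3A+SIN3B-DKO2 had 325 and 330 TPM, MLL1-KO1 had 388 and 365 TPM and MLL1-KO2 had 318 and 357 TPM. All 8 of these libraries were above the 6 others. FN1 rose by 0.74 in SIN3A+SIN3B-DKO1, 0.76 in MLL1-KO1 and 0.60 in MLL1-KO2 on the log2 scale (SE 0.08, limma, adjusted p = 1.4e-05, 6.6e-06 and 3.8e-05). In SIN3A+SIN3B-DKO2 the difference of 0.56 had an adjusted p in limma of 0.00012 but did not reach 1.5-fold, and it was 0.62 and passed without parental replicate 1. The MLL1-KO2 call was lost without parental replicate 2 (0.54) or MLL1-KO2 replicate 2 (0.52). The SAP30-KO1 and SAP30-KO2 values were -0.13 (95% interval -0.29 to 0.04) and -0.05 (-0.22 to 0.12).

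The difference between genotypes was tested directly. FN1 lay 0.74 higher in the lines labelled SIN3A+SIN3B-DKO than in SAP30-KO (95% interval 0.62 to 0.85, limma, adjusted p = 1.2e-06) and 0.77 higher in MLL1-KO than in SAP30-KO (0.65 to 0.89, limma, adjusted p = 2.4e-07). Of all genes, 3.25% and 6.34% were called higher in these comparisons. Between MLL1-KO and the lines labelled SIN3A+SIN3B-DKO the FN1 difference was 0.03, with a 95% interval of -0.08 to 0.15.

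VIM (chromosome 10, 17270240 to 17279592), the intermediate filament gene that defines mesenchymal cells, was among the 4 most abundant RNAs of every library. Parental cells had 5829 and 5741 TPM, SAP30-KO1 had 7012 and 6893 TPM, SAP30-KO2 had 7116 and 7255 TPM, and there were 6466 and 6408 TPM in the libraries labelled SIN3A+SIN3B-DKO1 and 5892 and 6088 TPM in those labelled SIN3A+SIN3B-DKO2. MLL1-KO1 reached 8571 and 8805 TPM, above every other library, while MLL1-KO2 had 5932 and 6114 TPM. Every edited library was above both parental ones, although by little in SIN3A+SIN3B-DKO2 and MLL1-KO2. VIM rose by 0.59 in MLL1-KO1 (SE 0.03, limma, adjusted p = 1.4e-08), just past the 1.5-fold minimum, and fell short of it without parental replicate 2 (0.58) or MLL1-KO1 replicate 2 (0.57). The other lines gave 0.27, 0.31, 0.15, 0.05 and 0.06, none of which reached 1.5-fold. MLL1-KO1 and MLL1-KO2 differed by 0.53 (95% interval 0.47 to 0.59), also short of it. Quantile normalisation, which gives the genes at the same rank the same value in every library, set the MLL1-KO1 difference to 0 and turned that of MLL1-KO2 to -0.25.

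CDH2 RNA, which encodes N-cadherin (chromosome 18, 25512843 to 25757910), was barely present and was not tested. The parental libraries held 7 and 5 reads and the edited libraries 0 to 13, corresponding to at most 0.368 TPM. The lowest were the SAP30-KO2 libraries, with 0 and 1 read, or 7.15% of the parental level with an exact 95% interval of 0.167% to 48.3%. The intervals of the other 5 lines included 100% of the parental level. At this depth no difference of those 5 lines was detectable, and no switch between the cadherins CDH1 and CDH2 was measurable from such counts.

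SNAI2, which encodes the repressor SLUG, set the MLL1-KO lines apart. Parental cells had 40.3 and 42.4 TPM, and the SAP30-KO libraries 47.8 and 46.5 TPM in SAP30-KO1 and 53.8 and 49.2 TPM in SAP30-KO2. The libraries labelled SIN3A+SIN3B-DKO1 had 43.9 and 42.3 TPM, and those labelled SIN3A+SIN3B-DKO2 had 53.4 and 58.5 TPM. MLL1-KO1 and MLL1-KO2 had 96.4, 94.7, 91.6 and 87.9 TPM. The 4 MLL1-KO libraries were thus well above the other 10, whose highest value was 58.5 TPM. SNAI2 rose by 1.20 in MLL1-KO1 and 1.11 in MLL1-KO2 (SE 0.06, limma, adjusted p = 1.6e-08 and 2.6e-08), and these calls stood under every alternative analysis. The values of 0.19, 0.31, 0.06 and 0.43 in the other lines did not reach 1.5-fold. The MLL1-KO mean exceeded the SAP30-KO mean by 0.90 (95% interval 0.82 to 0.99) and the mean of the lines labelled SIN3A+SIN3B-DKO by 0.91 (0.821 to 0.997), with adjusted p in limma of 5.5e-09 and 4.9e-09. In the second of these comparisons 6.91% of all genes were called higher.

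SNAI1, which encodes the related repressor SNAIL (chromosome 20, 48599517 to 48605423), was far less abundant, and its values moved in opposite directions between genotypes. Parental cells had 1.47 and 1.34 TPM, from 18 and 16 reads. SAP30-KO1 had 0.815 and 0.529 TPM, SAP30-KO2 had 0.982 and 0.787 TPM, and the libraries labelled SIN3A+SIN3B-DKO had 0.483 and 0.217 TPM in DKO1 and 0.905 and 0.924 TPM in DKO2. MLL1-KO1 had 2.95 and 2.26 TPM and MLL1-KO2 had 1.90 and 2.20 TPM. All 8 libraries of the SAP30-KO and SIN3A+SIN3B-DKO labels lay below both parental libraries and all 4 MLL1-KO libraries above them, from 3 to 41 reads each. How many of all genes showed such a pattern was not determined. SNAI1 reached 1 TPM in 6 libraries, the parental and MLL1-KO ones, and passed the filter through them alone. This pattern, the lower calls and the differences from MLL1-KO below were therefore fixed in part by the filter.

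By the test, SNAI1 fell by 0.71 in SAP30-KO1 and by 1.18 in SIN3A+SIN3B-DKO1 and rose by 0.70 in MLL1-KO1 (SE 0.20, limma, adjusted p = 0.012, 0.00051 and 0.011). The SAP30-KO1 call was lost without parental replicate 1 (-0.66) or SAP30-KO1 replicate 2 (-0.53), and the MLL1-KO1 call without parental replicate 2 (0.65) or MLL1-KO1 replicate 1 (0.54). The differences of -0.46 in SAP30-KO2, -0.43 in SIN3A+SIN3B-DKO2 and 0.42 in MLL1-KO2 did not pass (limma, adjusted p = 0.076, 0.10 and 0.087). The differences between genotypes were larger and did not depend on 1 library: MLL1-KO exceeded SAP30-KO by 1.15 (95% interval 0.83 to 1.46) and the lines labelled SIN3A+SIN3B-DKO by 1.36 (1.05 to 1.68), with adjusted p in limma of 2.8e-05 and 6.7e-06. SAP30-KO and the lines labelled SIN3A+SIN3B-DKO differed by -0.22, with an interval of -0.53 to 0.10. Within the latter label DKO1 lay 0.75 below DKO2 (limma, adjusted p = 0.034), where 1.01% of all genes were called lower. That difference lost its call without SIN3A+SIN3B-DKO1 replicate 2 (-0.53), SIN3A+SIN3B-DKO2 replicate 1 (-0.76) or SIN3A+SIN3B-DKO2 replicate 2 (-0.74).

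ZEB1 and ZEB2, the zinc finger and homeobox repressors of CDH1, moved little. ZEB1 (chromosome 10, 31607424 to 31818742) held 63.2 and 62.7 TPM in parental cells and between 53.7 and 71.9 TPM in the edited libraries. ZEB2 (chromosome 2, 145121931 to 145278624) held 5.99 and 5.37 TPM in parental cells and between 4.76 and 6.22 TPM elsewhere. Neither reached 1.5-fold in any line. The 95% intervals of all 6 lines together ran from -0.28 to 0.29 for ZEB1 and from -0.40 to 0.28 for ZEB2 on the log2 scale. For ZEB1, MLL1-KO1 and MLL1-KO2 stood on either side of parental cells, with 57.5 and 59.3 TPM against 70.04 and 71.88 TPM, a difference of -0.28 (limma, adjusted p = 0.0018). In ZEB2 the corresponding difference was -0.23 (limma, adjusted p = 0.073).

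**Figure D3:**
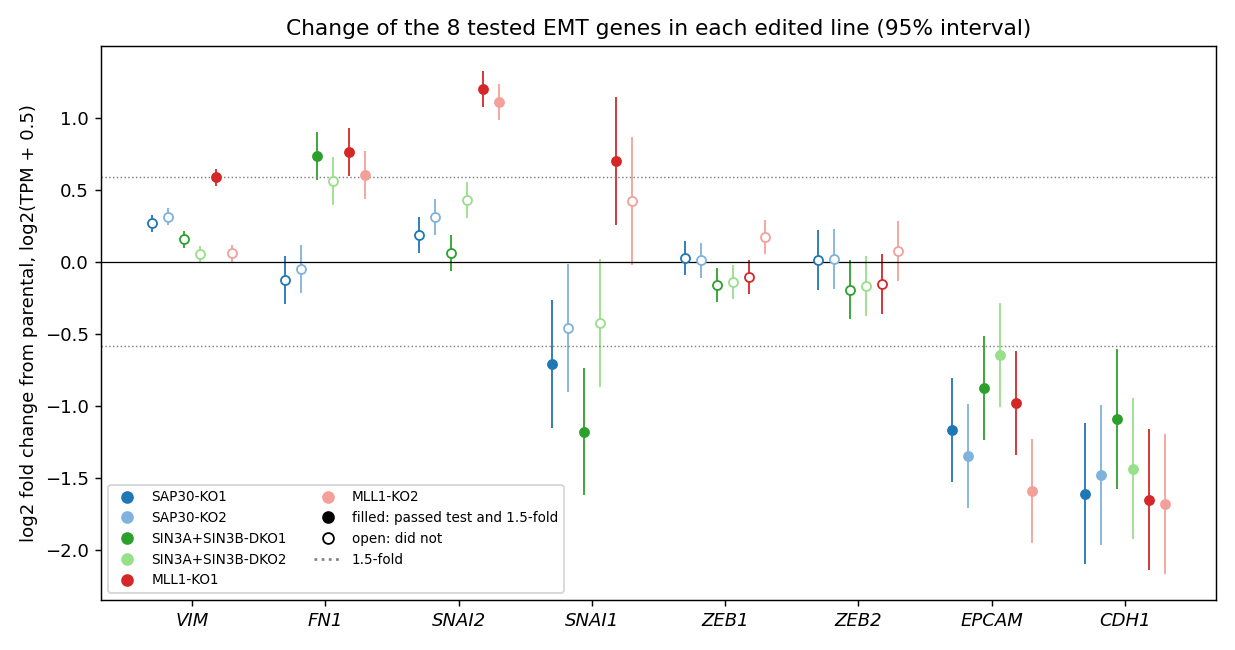
Log2 fold change from parental of the 8 tested genes in the 6 edited lines, with 95% intervals from limma. Filled points passed the test and the 1.5-fold minimum (dotted lines), and the filled points are all 6 lines for CDH1 and EPCAM, 3 for FN1 and SNAI1, the MLL1-KO pair for SNAI2, MLL1-KO1 for VIM and none for ZEB1 or ZEB2.

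The ratio of VIM to EPCAM TPM sets 1 mesenchymal against 1 epithelial gene within a library. In the edited lines VIM stood at 104% to 150% of the parental mean and EPCAM at 31.7% to 62.9%, so the ratio moved mostly with EPCAM. It does not stand for all mesenchymal genes: CAV1, another marker of mesenchymal-like lines, was called lower in 5 of the 6 lines. The ratio of VIM to EPCAM was 304 and 300 in the parental libraries. SAP30-KO1 had ratios of 1020 and 701, SAP30-KO2 of 1087 and 912, SIN3A+SIN3B-DKO1 of 582 and 686, SIN3A+SIN3B-DKO2 of 468 and 529, MLL1-KO1 of 945 and 893 and MLL1-KO2 of 1113 and 898. All 12 edited libraries were above the parental ones, and in this ratio the 4 labelled SIN3A+SIN3B-DKO were nearest to them. The ratio of FN1 to EPCAM TPM ordered the lines differently, with 12.03 and 11.13 in parental cells, 19.0 to 33.3 in SAP30-KO, 25.8 to 40.2 in the libraries labelled SIN3A+SIN3B-DKO and 37.0 to 59.7 in MLL1-KO. The ratio of SNAI2 to SNAI1 TPM was 27.5 and 31.7 in parental cells and 32.7 to 48.1 in the MLL1-KO libraries. In the others it was 54.8 to 195. SNAI1 had only 3 to 41 reads a library, so counting error in these ratios is large. The ratio of 195 came from 3 reads in SIN3A+SIN3B-DKO1 replicate 2, and replicate 1 gave 90.8.

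Of 38 other epithelial genes tested, from 52 listed, 20, 19, 16, 16, 20 and 23 were called lower in the 6 lines, and 1, 1, 1, 1, 5 and 3 were called higher. CDH3, which passed the filter through edited libraries alone, was among those called higher in both MLL1-KO lines. Among all tested genes 7.86%, 8.12%, 8.66%, 7.56%, 16.3% and 14.9% were called lower, against 52.6%, 50%, 42.1%, 42.1%, 52.6% and 60.5% of these. Their median log2 fold change was -0.69, -0.62, -0.43, -0.49, -0.84 and -1.04, beside medians of all genes from -0.09 to 0.03. LSR, a receptor of tricellular junctions, had 18.2 and 19.2 TPM in parental cells, 5.17 to 9.54 TPM in the libraries labelled SIN3A+SIN3B-DKO, 0.683 to 1.22 TPM in SAP30-KO and at most 0.109 TPM in MLL1-KO, and fell in all of the lines (limma, adjusted p from 3.9e-10 to 0.00029). JUP, which encodes the junction protein plakoglobin, had 17.4 and 19.9 TPM in parental cells and 1.35 to 4.59 TPM in the edited lines. ELF3, an epithelial transcription factor, went from 5.61 and 6.07 TPM to at most 2.18 TPM, and SPINT1, an epithelial protease inhibitor, from 6.57 and 7.48 TPM to at most 2.99 TPM. Among luminal keratins, KRT19 fell from 432 and 444 TPM to between 109 and 247 TPM in the edited libraries. A set of 9 luminal markers summed to 1623 and 1671 TPM in parental cells and 591 to 1102 TPM in the edited ones. Nearly all of that sum was keratin RNA, with KRT8 at 412 to 419 TPM and KRT18 at 746 to 777 TPM in parental cells beside KRT19. The sum therefore does not stand for all 9 markers. GATA3 had at most 12.8 TPM in parental cells and ranged from 8.16 to 17.3 TPM in the edited libraries. ESR1, PGR and FOXA1 did not exceed 0.191 TPM in any library.

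Other mesenchymal genes did not move to one side in SAP30-KO or SIN3A+SIN3B-DKO lines. Of 33 tested, 6, 6, 7, 6, 6 and 7 were called lower and 6, 5, 6, 5, 11 and 14 higher in the same order of lines, with medians of 0.11, 0.15, -0.02, 0.04, 0.26 and 0.22. In shares, 18.2% to 21.2% of them were called lower, and 15.2% to 18.2% higher in the SAP30-KO and SIN3A+SIN3B-DKO lines and 33.3% and 42.4% in MLL1-KO1 and MLL1-KO2. The higher calls include MMP3 in the SIN3A+SIN3B-DKO and MLL1-KO lines, at most 0.0761 TPM in parental cells and 3.88 TPM in edited ones. MMP3 passed the filter through edited libraries alone, so its higher calls were fixed in part by the filter. No count without genes of this kind was made. Of all tested genes 7.56% to 16.3% were called lower and 6% to 10.2% higher, and their median lay between -0.09 and 0.03. TNC, which encodes the matrix protein tenascin C, rose in every line, from 18.8 and 17.8 TPM in parental cells to between 37.7 and 51.9 TPM in SAP30-KO and SIN3A+SIN3B-DKO libraries and between 219 and 405 TPM in MLL1-KO libraries (log2 fold changes 1.12 to 4.40, limma, adjusted p from 6.9e-12 to 5.0e-07). CDH11, a mesenchymal cadherin, went from 35.2 and 36.6 TPM to between 102 and 131 TPM in SAP30-KO and SIN3A+SIN3B-DKO libraries, 64.4 and 63.7 TPM in MLL1-KO2 and 38.9 and 41.1 TPM in MLL1-KO1, the last of which did not reach 1.5-fold. MMP2, a gelatinase of the matrix, and ACTA2, the smooth muscle actin of myofibroblasts, are mesenchymal genes that fell in all of the lines, MMP2 from 1.63 and 1.97 TPM to at most 0.511 TPM and ACTA2 from 7.06 and 6.63 TPM to at most 2.57 TPM. MMP2 passed the filter only through the parental libraries, so it had to be higher there to be tested. Fibroblast markers summed to 5.32 and 6.09 TPM in parental cells and up to 13.2 TPM in MLL1-KO1, nearly all of it COL1A1. DCN and PDGFRA stayed at or below 3 reads in each library.

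**Figure D4:**
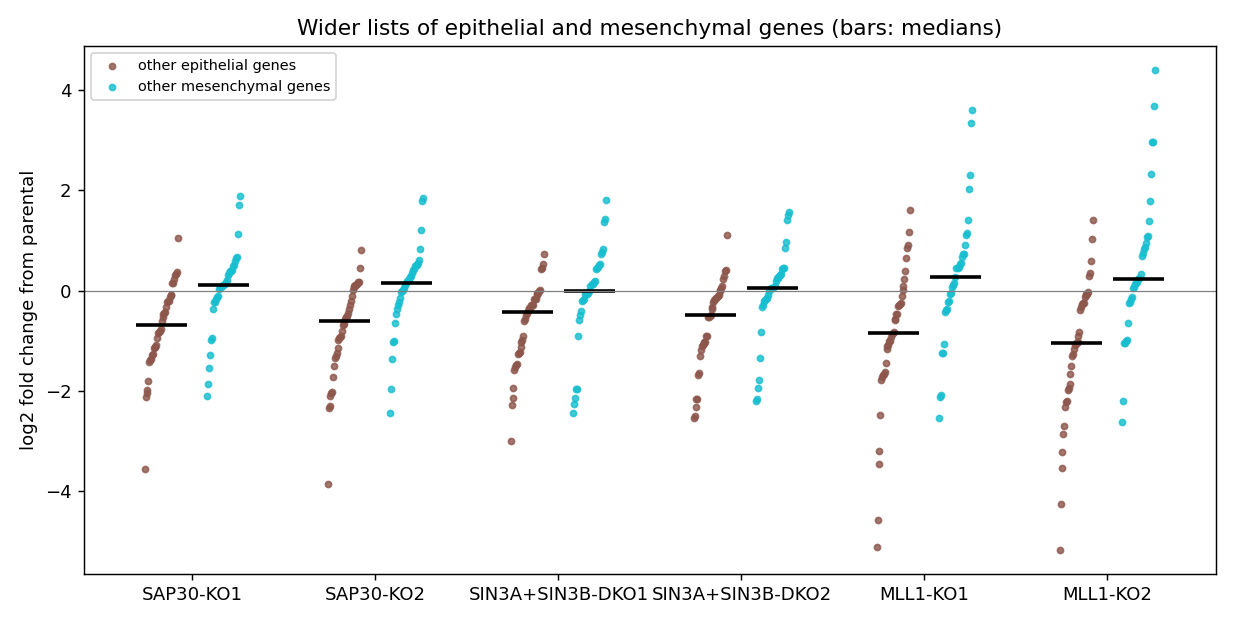
Log2 fold change from parental of 38 other epithelial genes (brown) and 33 other mesenchymal genes (cyan) in each edited line, 1 point per gene in rank order, with medians as bars. The epithelial medians lie between -1.04 and -0.43 and the mesenchymal medians between -0.02 and 0.26.

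Other transcription factors linked to the transition were measured beside the SNAI and ZEB genes. Of 12 tested, 3, 3, 6, 6, 4 and 4 were called lower and 1, 1, 1, 0, 1 and 3 higher in the order of lines given above, where 7.56% to 16.3% of all genes were called lower and 6% to 10.2% higher. The higher calls were KLF8, a Krüppel-like factor, at 1.68, 1.65, 0.83 and 1.003 on the log2 scale in SAP30-KO1, SAP30-KO2, SIN3A+SIN3B-DKO1 and MLL1-KO2, the chromatin protein gene HMGA2 at 0.87 and 0.997 in MLL1-KO1 and MLL1-KO2, and the homeobox gene PRRX1 at 0.61 in MLL1-KO2. TCF4, an E-box binding factor, fell from 5.16 and 5.01 TPM to between 0.0950 and 0.647 TPM, and ID3, an inhibitor of such factors, from 6.17 and 5.76 TPM to between 0.225 and 1.17 TPM, in all of the lines. TCF4 passed the filter only through the parental libraries, and without it 2, 2, 5, 5, 3 and 3 of 11 factors were called lower, a count added after the data were seen. ID1, a related inhibitor, measured 45.3 and 50.2 TPM in parental cells and 23.9 to 26.6 TPM in SAP30-KO and SIN3A+SIN3B-DKO libraries, where it fell, and 34.4 to 43.1 TPM in MLL1-KO libraries, where it did not reach 1.5-fold. FOXQ1, a forkhead factor, measured 133 and 135 TPM in parental cells and 88.9 to 106 TPM in SAP30-KO libraries, short of 1.5-fold, and fell to between 35.5 and 61.2 TPM in the other edited lines.

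Of 10 cadherin partners tested, catenins and nectins among them, 3, 2, 1, 1, 2 and 3 were called lower, where 7.56% to 16.3% of all genes were. After subtraction of the neighbours' median these counts were 1, 0, 1, 1, 1 and 2. PVRL1, which encodes a nectin, was the 1 partner called higher in each MLL1-KO line, at 0.78 and 1.01 on the log2 scale. ARVCF, a catenin of the p120 family, had 1.999 and 1.52 TPM in parental cells and 0.243 to 1.63 TPM in edited ones, which overlap. It was called lower in 5 lines, with log2 fold changes over all lines from -1.41 to -0.17. None of 19 regulators of the SNAI and ZEB proteins, such as the corepressors CTBP1 and CTBP2, the demethylase KDM1A and the kinase GSK3B, was called in any line in the limma fit of the values or in voom. Between 10 and 13 of the 19 had an adjusted p under 0.05 in limma in each line, and 10 to 15 an unadjusted p under 0.05, but their log2 fold changes, from -0.56 to 0.53, stayed short of 1.5-fold. After subtraction of the neighbours' median AJUBA, which encodes a LIM domain protein, was called lower in MLL1-KO1 (-0.59) and MLL1-KO2 (-0.60).

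Across the 14 libraries, the gene whose pattern was most like that of SNAI2 was WNT5B (Pearson r = 0.99), followed by EHD4 (r = 0.97). For FN1 these were MRPS2 and SLC2A1 (r = 0.97 and 0.95), for VIM FOXJ2 and CDCA3 (0.97 and 0.95), for EPCAM ANXA2 and TAF15 (0.96 and 0.95), for SNAI1 PODXL and SMARCA4 (0.96 and 0.95), for ZEB1 JAK1 and HIPK3 (0.95 and 0.95) and for ZEB2 SLC44A5 and TRIM2 (0.90 and 0.90). These are descriptions over 14 libraries, 2 from each of 7 groups, chosen as the highest of all genes.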

How the data were processed

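The authors prepared mRNA libraries with a KAPA mRNA Hyper Prep kit, sequenced them on a NextSeq 500 and deposited 1 table of values for each gene and library. Tools named in the submitters' processing notes are FastQC 0.11.2, TopHat and featureCounts, with hg19 as the build. The deposited values are called RPKM but every library sums to 1000000, so they were treated as TPM. The tests had been planned for RPKM, and the log2 scale used suits both. With a fixed sum per library, higher values of some genes mean lower values of others. A spreadsheet had turned 28 gene names into dates. Read numbers could be worked out from the spacing of the values for 100.0% of the 18519 genes above 0, with a tolerance of 0.03 reads. No column was left unused.

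Genes with at least 1 TPM in at least 2 libraries were tested in limma 3.58.1 (R 4.3.3) on log2(TPM + 0.5) with 7 group means from 14 libraries and a trended prior (7 residual degrees of freedom), and p-values were adjusted by Benjamini-Hochberg over 13540 genes. A gene was called at an adjusted p under 0.05 and at least 1.5-fold. Named genes were the members, the targeted genes, cell type markers, the 2 most correlated genes per member, and up to 4 genes per wider list that were called in the same direction in both lines of at least 2 genotypes, largest mean change first. CDH3, KLF8, HMGA2, PRRX1, PVRL1 and AJUBA were named after their values were seen. Members and lists were chosen with earlier results of these data known. Positions came from GENCODE annotation of GRCh37, which covered 96.5% of tested genes. The method was tested on simulated data given the same spread setting in all groups, which does not stand for the unequal spread of these groups. Replicates differed by 1.48 to 8.08 times the sampling noise (chi-square per degree of freedom), so no library was counted as a copy. The labels do not say that the 2 libraries of a line came from separate cultures, so p-values measure only the spread between these libraries. In comparisons of genotypes the spread between the 2 lines of each is not in the p-values.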

Additional observations from a re-analysis of the deposited data

Results flagged for a closer look

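Effects on 4 genes differed between genotypes, or between the lines of 1 genotype, by at least 1.5-fold in a test of the difference itself. Smaller differences with an adjusted p under 0.05 in limma, among them some of VIM, ZEB1, ZEB2 and CDH1, are not listed here. FN1 lay 0.7365 higher in the lines labelled SIN3A+SIN3B-DKO and 0.7703 higher in MLL1-KO than in SAP30-KO, on the log2 scale. SNAI2 lay 0.904 higher in MLL1-KO than in SAP30-KO and 0.9089 higher than in the lines labelled SIN3A+SIN3B-DKO. SNAI1 lay 1.146 and 1.3637 higher in MLL1-KO in the same comparisons, though it passed the filter only through parental and MLL1-KO libraries. Between the lines of 1 genotype, SNAI1 differed by -0.7528 (SIN3A+SIN3B-DKO1 minus SIN3A+SIN3B-DKO2) and EPCAM by 0.6092 (MLL1-KO1 minus MLL1-KO2). The adjusted p from limma and the intervals stand with each result above, and between genotypes they leave out the spread between lines. The last pair lost their calls when certain single libraries were left out, as given there.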

How the results depend on the processing

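Only 2 libraries per line and the few reads of CDH1, CDH2 and SNAI1 limit these results. With no fold minimum 5 members were called in SAP30-KO1, 4 in SAP30-KO2 and 5 in SIN3A+SIN3B-DKO2, and with a 2-fold minimum 2 in SIN3A+SIN3B-DKO1, 1 in SIN3A+SIN3B-DKO2 and 2 in MLL1-KO1. Leaving out 1 library at a time gave 2 to 3 calls in SAP30-KO1, 2 in SAP30-KO2, 4 in SIN3A+SIN3B-DKO1, 2 to 3 in SIN3A+SIN3B-DKO2, 4 to 6 in MLL1-KO1 and 3 to 4 in MLL1-KO2. With a pseudocount of 1 the SNAI1 calls in SAP30-KO1 (-0.53) and MLL1-KO1 (0.58) and the differences SIN3A+SIN3B-DKO1 minus DKO2 in SNAI1 (-0.51) and MLL1-KO1 minus MLL1-KO2 in EPCAM (0.57) fell short of 1.5-fold. Subtraction of the neighbours' median also ended these 2 differences (-0.67 and 0.57). SNAI1 in MLL1-KO2 was 0.64 and called under quantile normalisation. That scaling moved the median of all genes by 0.13 in MLL1-KO1 and by 0.10 between MLL1-KO and SAP30-KO.

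Changes of sign were small except for VIM under quantile normalisation. But for VIM in MLL1-KO1, they were in values that had not been called. The reversed VIM values in MLL1-KO2 and between MLL1-KO and the lines labelled SIN3A+SIN3B-DKO had adjusted p in limma of 0.00032 and 1.6e-05. By the construction of quantile normalisation VIM, near the top rank, came to 0 in MLL1-KO1, -0.25 in MLL1-KO2 and -0.25 between MLL1-KO and the lines labelled SIN3A+SIN3B-DKO, and ZEB2 to -0.013 in SAP30-KO1 and 0.069 in MLL1-KO1. Median-ratio scaling gave ZEB1 -0.012 and -0.015 and ZEB2 -0.025 and -0.0044 in the SAP30-KO pair. Subtraction of the neighbours' median gave VIM -0.059 in SIN3A+SIN3B-DKO2, ZEB1 -0.072 in SAP30-KO1, -0.0089 in SAP30-KO2 and 0.020 in MLL1-KO1, and ZEB2 -0.0074 in SAP30-KO1 and 0.0087 in MLL1-KO1. Leaving out 1 library gave ranges of -0.11 to 0.0095 for FN1 in SAP30-KO2, -0.0094 to 0.060 and -0.016 to 0.032 for ZEB1 in the SAP30-KO pair, and -0.063 to 0.083, -0.090 to 0.12 and -4e-06 to 0.15 for ZEB2 in SAP30-KO1, SAP30-KO2 and MLL1-KO2. In the wider lists, the median of other epithelial genes in MLL1-KO1 went from -0.84 to -0.55 under quantile normalisation. Subtraction of the neighbours' median took that of other mesenchymal genes from 0.11 and 0.15 to 0.060 and 0.061 in the SAP30-KO pair, and from -0.015 and 0.044 to 0.016 and 0.0063 in the lines labelled SIN3A+SIN3B-DKO. For changes with no stated construction the cause was not tested.

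The replicate number as a block gave 3, 2, 4, 2, 6 and 4 members called in the 6 lines, as without the block, and changed no other call on a member. Deviations of same-numbered libraries correlated by -0.07 to 0.08 over 21 pairs of groups, so the numbers did not pair the libraries.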
